A study of Mus musculus with 59 samples.

Results

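Hippocampal transcriptomes of APOE4 and APOE3 female mice were compared at 15 months of age after estrous cycling had stopped. The comparison used 9 of the 59 RNA-sequencing libraries of the series, which are the 6 libraries labelled APOE4 15M-Acyc and the 3 labelled APOE3 15M-Acyc, as their labels give genotype, age and cycle status. Mice of both groups carried human APOE in place of the mouse gene on both chromosomes (hAPOE4/hAPOE4 or hAPOE3/hAPOE3, humanized targeted replacement lines), so the comparison is between human alleles and holds no mouse with its own Apoe. The homozygous APOE4 mice were obtained directly, whereas the APOE3 mice were bred from heterozygous founders, so passenger genome and breeding cannot be told apart from the APOE allele. Acyclic status was assigned from daily vaginal cytology. All mice were fasted overnight before collection, and each library came from the bulk hippocampus of 1 animal. The 15M-Irreg groups, of the same age but still cycling irregularly, gave 14 libraries for the test of whether a genotype difference was larger at 15M-Acyc. Mice of both genotypes at 6 months with regular cycles (6M-Reg) and at 9 months with regular or irregular cycles (9M-Reg and 9M-Irreg) gave the other 36 libraries, which entered the common model and are given as levels for some genes.

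Apolipoprotein E carries cholesterol and other lipids between cells of the brain and is made there mainly by astrocytes and microglia, with contributions from cells of the vessel wall. The APOE4 isoform is the main common genetic risk allele for late-onset Alzheimer's disease, and it has been linked to lipid handling, glial reactivity and the integrity of the brain vasculature. Loss of ovarian cycling removes the cyclic supply of estradiol and progesterone, to which neurons, glia and endothelium respond. The comparison therefore asked which functions and which cell types of the hippocampus differed by APOE genotype in the reproductively senescent state.

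Between 19.93 and 30.44 M reads (M, mega) were counted on genes per library. The groups averaged 26.8 ± 3.20 M reads (SD, n = 3) in APOE3 and 24.2 ± 2.65 M reads (SD, n = 6) in APOE4, a difference of -2.61 M reads that was within the spread of the libraries (two-sided exact permutation test, p = 0.274, smallest possible p 0.0119). The residual mouse Apoe transcript, the check of the replaced gene, had 2.92 to 3.76 CPM (reads scaled to a common library size) in APOE3 and 2.65 to 5.63 CPM in APOE4. Its groups overlapped, and it was low in each of the 9 libraries. Libraries of 1 group differed from each other by more than sampling noise (3.58 or more chi-square units per gene in each pair), so all were counted as separate samples. Dissection content varied between libraries within each genotype. With 3 APOE3 and 6 APOE4 libraries, whether it also differed by genotype cannot be told. Choroid plexus markers, the transcripts of the tissue that secretes cerebrospinal fluid, summed to 157, 3966 and 1895 CPM in APOE3 libraries 27, 28 and 29. They summed to 4063 and 6893 CPM in APOE4 libraries 57 and 58, and to between 61.5 and 92.7 CPM in the other 4 APOE4 libraries. The plot of list medians therefore gives each list also without library 28 and without libraries 28, 29, 57 and 58, and the text gives these settings beside some of the counts. The last setting keeps a single APOE3 library, whose spread is taken from the other groups.

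Expression was close between the APOE4 15M-Acyc group and APOE3 counterparts for most of the 18584 genes tested. The median log2 fold change (APOE4 against APOE3) was 0.01, and the middle quartiles lay between -0.09 and 0.12. By edgeR's quasi-likelihood test, fitted over all 59 libraries with Benjamini-Hochberg adjustment, 3 genes passed an adjusted p of 0.05. All were lower in APOE4 (0.0161% of genes tested), and no gene was higher. Those genes were Fbn2, Ndn and the pseudogene Gm29216. At an unadjusted p under 0.05, 1027 genes were higher in APOE4 (5.53%) and 1052 were lower (5.66%). These unadjusted shares are the background for each list described here. In the same libraries 1.95% of genes had every APOE4 library above every APOE3 library and 2.71% had every APOE4 library below. DESeq2 called 7 higher and 9 lower on the same counts, and limma on the authors' normalized values called 3 higher and 3 lower. A fit on the 9 libraries alone called none at the adjusted threshold and 1629 at the unadjusted one.

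**Figure D1:**
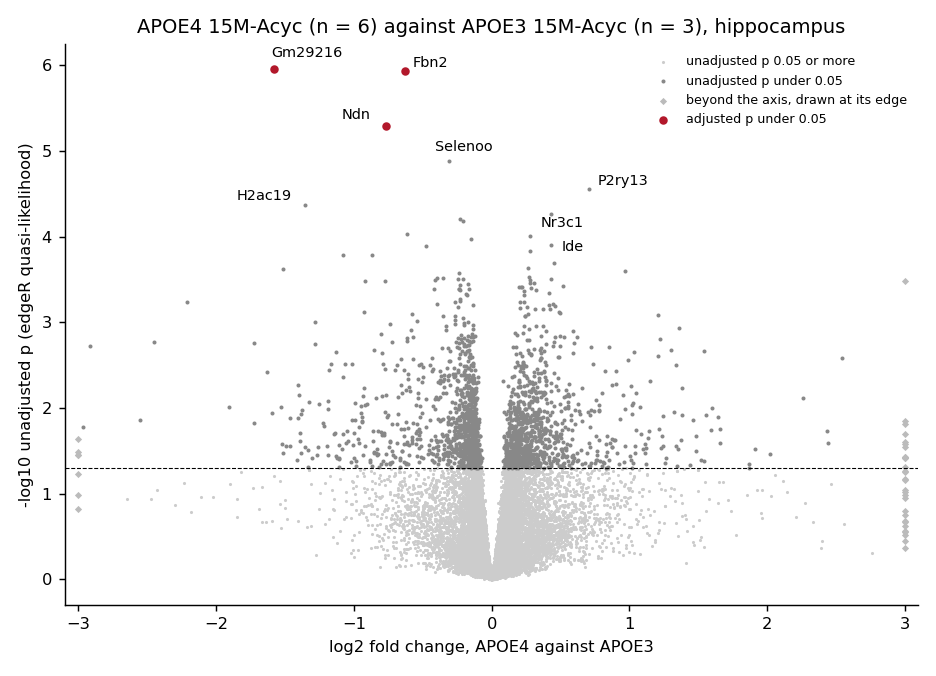
Each point is 1 of 18584 genes, with the log2 fold change of APOE4 against APOE3 at 15M-Acyc on the horizontal axis and -log10 of the unadjusted p on the vertical axis. The 3 genes that passed the adjusted threshold lie on the left, 37 genes with a fitted change beyond 3 are drawn at the edge, and the dashed line marks an unadjusted p of 0.05.

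Fbn2, which encodes the extracellular microfibril protein fibrillin 2 (chr18:58008623-58210487, GRCm38), was lower in APOE4 than in APOE3 at 15M-Acyc. It had 9.79, 7.92 and 9.74 CPM in the APOE3 libraries, and in APOE4 it ranged from 5.50 to 6.63 CPM with a median of 5.73. Each APOE4 library was below each APOE3 library. The log2 fold change was -0.63 ± 0.12 (SE, adjusted p = 0.0109). At 15M-Irreg the medians were 6.70 CPM in APOE3 and 6.94 CPM in APOE4, so the 15M-Acyc median was above that level in APOE3 and below it in APOE4. The log2 fold change at 15M-Irreg was 0.04, and the test of the difference between the 2 stages gave -0.67 with an unadjusted p of 2.54e-05 and an adjusted p of 0.236. The gene stayed called without library 28 (adjusted p = 0.0135) and in 12 of 18 alternatives. It was not called on the compared groups alone, with GC content and length offsets, without library 27, 29 or 60, or without the 4 choroid-rich libraries.

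Ndn, which encodes the imprinted MAGE-family protein necdin of postmitotic neurons (chr7:62346569-62350262), was also lower in APOE4. It had 231, 218 and 111 CPM in the APOE3 libraries, and 88.6 to 120 CPM (median 113) in APOE4. APOE3 library 29 therefore lay inside the APOE4 range while the other two lay well above it. The log2 fold change was -0.77 ± 0.15 (SE, adjusted p = 0.0316). The genotype difference was of like size before cycling stopped (-0.65 at 15M-Irreg, -0.77 at 9M-Irreg, -0.91 at 9M-Reg and -0.87 at 6M-Reg), and the stage test gave -0.12 with an unadjusted p of 0.532. Across all stages 4 of 29 APOE3 libraries were at or under the highest APOE4 value of 132 CPM, and the next APOE3 library stood at 183 CPM. It was called in 9 of 18 alternatives, and the adjusted p without library 28 was 0.538. Leaving out library 27, 57, 58, 59 or 60 also ended the call.

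Gm29216 is annotated as an unprocessed pseudogene on chromosome 1 (chr1:24615706-24616197), and it had the lowest unadjusted p of all genes. It had 637, 694 and 566 CPM in APOE3, and 104 to 327 CPM (median 222) in APOE4, with no overlap. The log2 fold change was -1.58 ± 0.29 (SE, adjusted p = 0.0109), against -0.18 at 15M-Irreg. Its value cannot be read as that of a separate gene. Of its 492 bases, 483 align without gaps to the mitochondrial cytochrome c oxidase transcript mt-Co1, with 1 mismatch (A1066T, counted from the first base of mt-Co1, mt-Co1 base first). The stretch that holds the mismatch, shown because the sharing of reads decides the value, reads as follows, with the mismatched base in capitals.
Gm29216: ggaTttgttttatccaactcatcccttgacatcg
mt-Co1: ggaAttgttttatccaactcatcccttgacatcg
Reads that do not reach this base or the first bases of the pseudogene could be assigned to either transcript. The sum of both was 16916, 18662 and 17721 CPM in APOE3 and 16139 to 21120 CPM in APOE4, a log2 ratio of means of 0.03. The share of that sum given to Gm29216 was 3.19% to 3.77% in APOE3 and 0.541% to 1.79% in APOE4. What moved that share was not tested. Gm29216 was called in 14 of 18 alternatives, and its log2 fold change lay between -1.78 and -1.44 over the 18. The call was lost on the compared groups alone, without library 28 (adjusted p = 0.174), without library 60 and without the 4 choroid-rich libraries.

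Genes with the next smallest p values did not pass the adjusted threshold in the edgeR fit over all 59 libraries. Their values are given as measured. Without library 58 that fit called the ubiquitin ligase gene Herc4 and the lipid transporter gene Abca2. With all libraries Abca2 had a log2 fold change of -0.23 ± 0.06 (SE, adjusted p = 0.164). On the higher side stood P2ry13, an ADP receptor of microglia, with 6.25, 4.91 and 5.34 CPM in APOE3 and 8.30 to 10.1 CPM (median 8.90) in APOE4. Its groups did not overlap, and its log2 fold change was 0.71 ± 0.16 (SE, adjusted p = 0.103). P2ry13 was called at the adjusted threshold by limma on the authors' normalized values. Ide, the insulin-degrading enzyme, which also cleaves amyloid-beta, had 63.6, 73.6 and 61.9 CPM in APOE3 and 81.0 to 94.5 CPM (median 89.5) in APOE4, a log2 fold change of 0.43 ± 0.10 (SE, adjusted p = 0.164). Its log2 fold change was also above 0 at each earlier stage, at 0.19 for 15M-Irreg and 0.29 for 6M-Reg, with overlapping groups. Naf1, an assembly factor of H/ACA ribonucleoproteins, differed by 0.43, the growth factor gene Ptn by 0.43, Msl3 of a histone acetyltransferase complex by 0.28, the sorting nexin gene Snx7 by 0.45, the ubiquitin ligase genes Hace1 and Herc4 by 0.26 and 0.27, the riboflavin transporter gene Slc52a3 by 0.97 and Tmem29 by 0.28.

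On the lower side the selenoprotein gene Selenoo, whose product is mitochondrial, had a log2 fold change of -0.31 ± 0.07 (SE, adjusted p = 0.0611). Selenoo was called at the adjusted threshold by limma on the authors' normalized values, and by edgeR without library 27 and without library 58. Fto, the RNA demethylase gene, had 177, 186 and 183 CPM in APOE3 and 160 to 167 CPM in APOE4, without overlap, a change of -0.15. The F-box gene Fbxo21 differed by -0.23, the costimulatory ligand gene Icosl by -0.48, the tubulin carboxypeptidase gene Vash2 by -1.08, and the processed pseudogene Gm38356 and the antisense transcript Gm48529 by -0.62 and -0.87.

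Histone H2A genes of the cluster on chromosome 3 lay in opposite directions, and their reads could be shared. H2ac20 had between 0 and 2 reads per APOE3 library, which is under the floor of 3 reads, and 0.456 to 3.05 CPM in APOE4. Against the highest APOE3 floor of 0.123 CPM, the APOE4 median of 1.04 CPM was at least 8.43-fold higher. H2ac19 had 14.1, 12.7 and 7.27 CPM in APOE3 and 3.34 to 5.88 CPM in APOE4, a log2 fold change of -1.35 ± 0.30 (SE, adjusted p = 0.131). H2ac18 was 0.62 higher. The whole 528 bases of the H2ac19 transcript are identical to H2ac18, and 96.2% of 396 aligned bases are identical between H2ac19 and H2ac20, so the split of reads among these genes is uncertain.

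**Figure D2:**
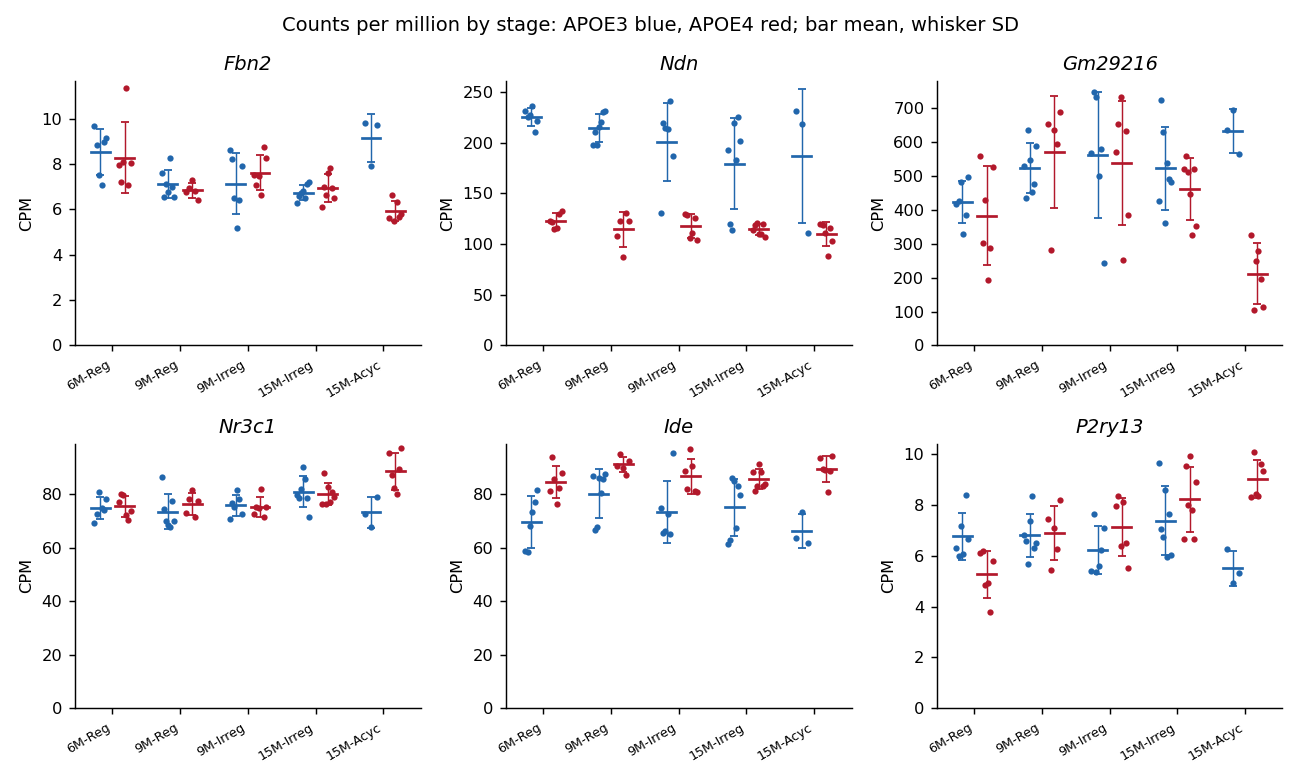
CPM of 6 genes (vertical axis, from 0) in all 59 libraries by endocrine stage, with APOE3 in blue, APOE4 in red, the mean as a bar and the SD as a whisker. Fbn2, Gm29216, Nr3c1 and P2ry13 separate by genotype at 15M-Acyc, whereas the Ndn and Ide means differed in the same direction at each earlier stage, with overlapping Ide libraries at each of those stages.

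Blood vessel transcripts lay on the higher side. All 12 endothelial markers were higher in APOE4, with a median log2 fold change of 0.23 beside 0.01 over all genes, and 2 of the 12 passed the unadjusted threshold (background 5.53%). None passed the adjusted one. The summed endothelial markers stood at 221, 241 and 231 CPM in APOE3 and at 247 to 290 CPM (median 274) in APOE4, so the groups did not overlap. Because these are bulk samples, more (or fewer) cells of a type and more (or less) RNA per cell cannot be told apart. Cldn5, the tight junction claudin of brain endothelium, had 29, 22.7 and 24 CPM in APOE3 and 26.1 to 37.6 CPM (median 33) in APOE4, a change of 0.37 ± 0.17 (SE, unadjusted p = 0.0349). Flt1, a VEGF receptor gene, had 49, 49.5 and 49.8 CPM in APOE3, and all APOE4 libraries but library 57, at 49.7 CPM, lay at 58.3 CPM or above. Its change was 0.22 ± 0.10 (SE, unadjusted p = 0.0336). The 12 of 12 count was the same without library 28 (median 0.24, 1 at the unadjusted threshold) and without the 4 choroid-rich libraries (median 0.28). Both settings leave out library 28, which had the highest APOE3 sum, and keep library 27, which had the lowest. They are therefore a weak check of this direction. At 15M-Irreg 8 of the 12 were higher, with a median of 0.07, whereas 8 of 12 were lower at 9M-Irreg (median -0.03), 11 of 12 at 9M-Reg (median -0.13) and all 12 at 6M-Reg (median -0.23). No marker passed the unadjusted test of the difference between 15M-Acyc and 15M-Irreg.

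Pericyte and smooth muscle genes lay the same way, with 8 of 10 mural markers higher (median 0.23), and 3 higher and 1 lower at the unadjusted threshold. Without library 28 these were 2 and 0, and without the 4 choroid-rich libraries 1 and 0. Rgs5, a pericyte regulator of G-protein signalling, had 73.3, 73.8 and 73.7 CPM in APOE3 and 78.8 to 90.3 CPM (median 86.7) in APOE4. The APOE3 libraries were within 1 CPM of each other and all below APOE4, with a change of 0.22 ± 0.07 (SE, unadjusted p = 0.00383). Abcc9, the sulfonylurea receptor subunit of pericyte potassium channels, differed by 0.29 and Higd1b by 0.56. The 2 lower markers were Pdgfrb at -0.02 and Cspg4, which is shared with oligodendrocyte precursors, at -0.21, the latter at the unadjusted threshold.

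In the list for angiogenesis and blood-brain barrier transport, 18 of 20 genes were higher (median 0.20), with 5 higher and 1 lower at the unadjusted threshold. The split of 18 to 2 was the same without library 28 and without the 4 choroid-rich libraries, but 2 and 1 genes passed that threshold, all on the higher side. Vegfa, the principal angiogenic growth factor, had 61.5, 55.8 and 59.8 CPM in APOE3 and 66.4 to 81.0 CPM (median 71.5) in APOE4, without overlap, a change of 0.30 ± 0.09 (SE, unadjusted p = 0.00205). The test of Vegfa against 15M-Irreg gave 0.36 with an unadjusted p of 0.00364 and an adjusted p of 0.949. Tjp1, which encodes the tight junction scaffold ZO-1, differed by 0.27 and the efflux pump gene Abcg2 by 0.23. Mfsd2a, which carries lysophospholipid-bound omega-3 fatty acids across the barrier and limits transcytosis, went the other way. It had 27.9, 33.1 and 29.3 CPM in APOE3 and 17.8 to 26.3 CPM (median 21) in APOE4, without overlap, a change of -0.52 ± 0.20 (SE, unadjusted p = 0.0129). Cldn5 and Flt1 belong to this list and to the endothelial markers. Red blood cell genes lay on the same side as the vessel lists, with 5 of 6 higher (median 0.21), 2 of them at the unadjusted threshold. Without library 28 they split 3 to 3, with 0 at that threshold. The hemoglobin genes Hba-a1 and Hba-a2, which share reads, differed by 0.46 and 0.48 and Hbb-bt by 0.37, all 3 without overlap. The part of blood content in the vessel result was not tested.

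**Figure D3:**
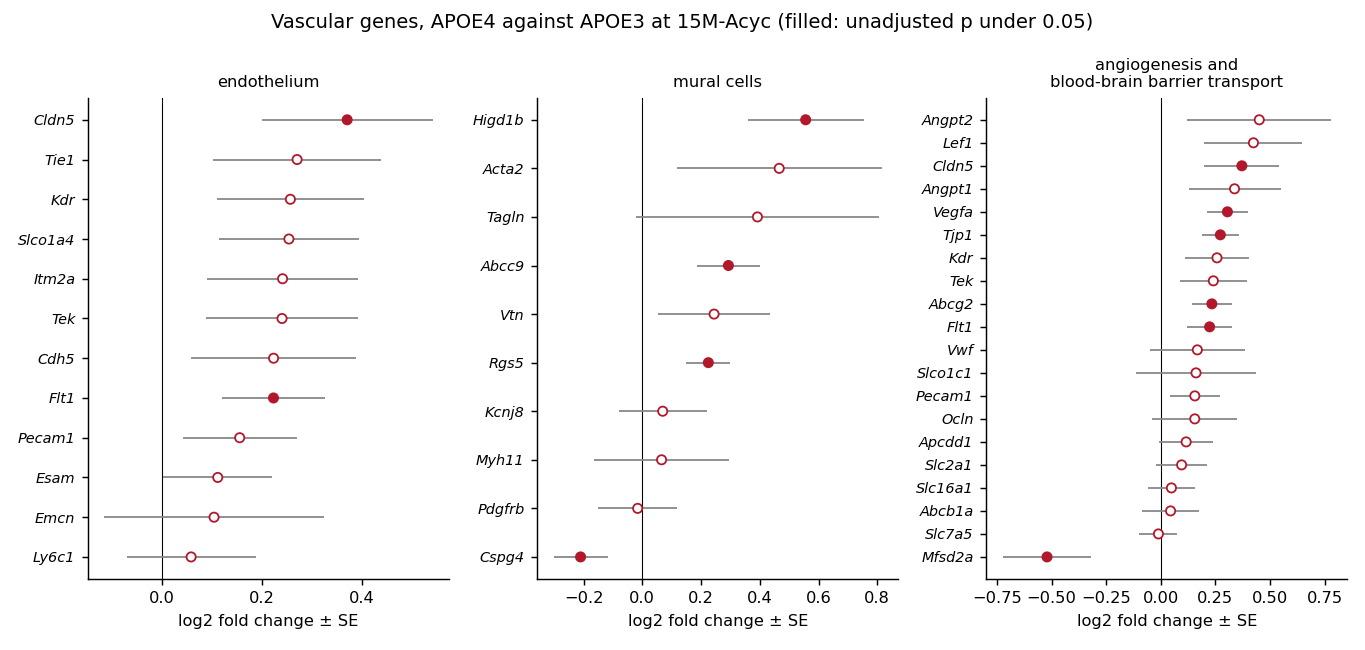
Log2 fold changes (APOE4 against APOE3 at 15M-Acyc, horizontal axis) with SE for each gene of the endothelial, mural and barrier lists, filled where the unadjusted p was under 0.05. All 12 endothelial markers lie right of 0, whereas Mfsd2a stands at -0.52.

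Fluid-barrier and lining tissues were uneven between animals. Ependymal markers, of the ciliated cells lining the ventricles, were higher for 12 of 12 (median 0.36), and Ccdc39 (0.31) and Ccdc153 (0.65) passed the unadjusted threshold. The highest sums, 105 and 140 CPM, were in APOE4 libraries 57 and 58, which were also rich in choroid plexus. Without the 4 choroid-rich libraries 5 of 12 were higher (median -0.09). Meningeal fibroblast genes were higher for 11 of 12 (median 0.43) with none at the unadjusted threshold, and among them were the collagen genes Col3a1 (1.23 ± 0.71, SE) and Col1a2 (0.82 ± 0.52, SE). Choroid plexus genes were split 8 to 6 (median 0.03). Their median moved to 0.92 without library 28 and to -0.80 without libraries 28, 29, 57 and 58, so their direction depended on the libraries kept.

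Glucocorticoid signalling is the hormonal stress pathway in which cortisol or corticosterone binds a nuclear receptor that switches target genes on. Its receptor gene and its targets lay on opposite sides. Nr3c1, the receptor (chr18:39410545-39519421), had 72.8, 67.7 and 79.1 CPM in APOE3 and 79.9 to 97.3 CPM (median 88.2) in APOE4, with no overlap. Its log2 fold change was 0.28 ± 0.07 (SE, adjusted p = 0.164), against -0.02 at 15M-Irreg, and the test of that difference gave 0.29 with an unadjusted p of 0.00075 and an adjusted p of 0.949. limma on the authors' normalized values called Nr3c1 at the adjusted threshold. By contrast, all 15 glucocorticoid target genes tested were lower (median -0.17), and 5 of them passed the unadjusted threshold (background 5.66%) with none past the adjusted one.

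Fkbp5, the immunophilin that restrains the receptor and is itself induced by it, had 87.9, 70.7 and 84.3 CPM in APOE3 and 54.6 to 70.2 CPM (median 67.0) in APOE4. Every APOE4 library was below the lowest APOE3 library, by less than 1 CPM at the closest, and the change was -0.31 ± 0.13 (SE, unadjusted p = 0.0184). Plin4, a lipid droplet coat protein gene, had 36.2, 39.2 and 31.9 CPM in APOE3 and 14.4 to 25.1 CPM (median 19.4) in APOE4, a change of -0.83 ± 0.39 (SE, unadjusted p = 0.0357). The sulfotransferase gene Sult1a1 differed by -0.52 without overlap, the cell cycle inhibitor gene Cdkn1a by -0.71 and the transcription factor gene Klf15 by -0.23. Library 28 held the highest value for 7 of the 15. Without it all 15 stayed lower (median -0.14) with 1 at the unadjusted threshold. Without the 4 choroid-rich libraries 10 of 15 were lower (median -0.15). Lower genes numbered 9 of 15 at 15M-Irreg (median -0.02) and 11 of 15 at 9M-Irreg (median -0.15), with medians of 0.05 at 9M-Reg and 0.02 at 6M-Reg, and none passed the unadjusted test between 15M-Acyc and 15M-Irreg. Corticosterone was not among the values analysed here.

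Genes of the circadian clock, several of which respond to glucocorticoids, were lower for 13 of 18 (median -0.07). Ciart differed by -0.65, Cry2 by -0.18 and Tef by -0.16, all at the unadjusted threshold. For Ciart, APOE3 library 27 at 8.72 CPM was within the APOE4 range of 8.21 to 13.8 CPM, whereas libraries 28 and 29 stood at 19.5 and 19.9 CPM. Without library 28 none passed the unadjusted threshold, and without the 4 choroid-rich libraries 14 of 18 were higher with none past it. At 15M-Irreg 14 of 18 were lower (median -0.09, 3 at the threshold) and at 9M-Irreg 15 of 18 (median -0.07), whereas 13 of 18 were higher at 9M-Reg and 10 at 6M-Reg. The time of day of tissue collection was not given per library.

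Interferon-stimulated and antigen presentation genes were lower in APOE4, and the difference rested on 1 APOE3 library. Type I interferon acts through a transcription factor complex that binds a short element in target promoters, and it raises antiviral genes together with MHC class I. In the interferon list 22 of 24 genes were lower (median -0.31), 6 of them at the unadjusted threshold. In the antigen presentation list 16 of 17 were lower (median -0.42), 2 of them at that threshold. None in either list passed the adjusted threshold, and no gene of either list had groups without overlap. Library 28 held the highest of the 9 values for 23 of the 24 interferon genes and for 15 of the 17 antigen presentation genes. Without it, 19 of 24 interferon genes were higher in APOE4 (median 0.09) and 13 of 17 antigen presentation genes were higher (median 0.21), and none passed the unadjusted threshold in either list.

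Isg15, a ubiquitin-like antiviral protein gene, had 0.836, 3.25 and 0.699 CPM in APOE3 and 0.410 to 0.872 CPM (median 0.690) in APOE4. Irf7, the master regulator of the interferon response, had 1.74, 7.49 and 1.60 CPM in APOE3 and 1.4 to 2.5 CPM in APOE4. Bst2, which encodes the virus-tethering protein tetherin, had 2.61, 17.7 and 4.93 CPM in APOE3 and 2.28 to 7.18 CPM in APOE4. In each of these the middle value, of library 28, was the one that stood out. The MHC class I gene H2-D1 had 41.4, 110 and 47.2 CPM in APOE3 and 39.1 to 56.5 CPM in APOE4, and its change of -0.52 became 0.06 without library 28. Rtp4, Usp18, Stat2 and the peptide transporter gene Tap1 had changes of -1.02, -1.1, -0.14 and -0.73, and of -0.40, 0.02, -0.05 and -0.28 without it. At 15M-Irreg, which shares no library with this comparison, 22 of 24 interferon genes were higher in APOE4 (median 0.21), and 8 of the 24 were at an unadjusted p under 0.05 on the lower side of the stage test (background 2.46% lower and 2.65% higher). At 9M-Reg, which also shares no library with it, 22 of 24 were lower (median -0.42, 4 at the unadjusted threshold) and 16 of 17 antigen presentation genes were lower (median -0.30). The stage test between 15M-Acyc and 15M-Irreg uses library 28 too.

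A promoter element was also sought in the interferon genes, without use of their expression values. The windows from 250 bases before to 50 after the start of each gene (RefSeq, GRCm38.p6) were searched for GAAANNGAAA and for its reverse complement TTTCNNTTTC, the repeat bound by the interferon-activated complex. It was present in 11 of the 17 interferon genes with a window in the table, beside 3.99% of all 27025 genes with a window, 2 of 13 antigen presentation genes, 1 of 14 glucocorticoid targets and 0 of 9 endothelial markers. A match is a match of letters and not a shown binding site. The windows of 3 interferon genes named here are shown as examples that hold the element, with each match in capitals. They lie at chr4:156200769-156201068 on the minus strand, chr8:71537423-71537722 on the minus strand and chr10:128270248-128270547 on the plus strand.
Isg15: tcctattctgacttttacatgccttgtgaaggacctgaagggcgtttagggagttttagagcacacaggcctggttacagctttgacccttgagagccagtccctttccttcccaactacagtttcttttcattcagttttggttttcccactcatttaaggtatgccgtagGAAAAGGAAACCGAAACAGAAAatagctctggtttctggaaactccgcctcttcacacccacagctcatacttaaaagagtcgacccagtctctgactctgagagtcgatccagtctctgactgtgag
Bst2: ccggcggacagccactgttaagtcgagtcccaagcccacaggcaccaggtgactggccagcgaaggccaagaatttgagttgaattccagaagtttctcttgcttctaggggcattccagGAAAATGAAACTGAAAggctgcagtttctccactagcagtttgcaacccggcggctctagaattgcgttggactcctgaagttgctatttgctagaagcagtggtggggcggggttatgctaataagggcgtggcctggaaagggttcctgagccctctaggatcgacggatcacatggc
Stat2: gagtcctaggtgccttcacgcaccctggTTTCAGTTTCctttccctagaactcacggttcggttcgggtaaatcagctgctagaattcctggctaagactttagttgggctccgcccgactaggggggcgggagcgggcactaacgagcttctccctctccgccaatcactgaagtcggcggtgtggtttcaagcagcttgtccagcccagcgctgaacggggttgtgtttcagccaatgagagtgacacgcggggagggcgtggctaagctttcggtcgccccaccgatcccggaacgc
Isg15 held 3 overlapping matches, Bst2 held 2 and Stat2 held 1. The windows of Irf7, H2-D1 and Tap1, which were also highest in library 28, held 0 matches and are not shown.

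**Figure D4:**
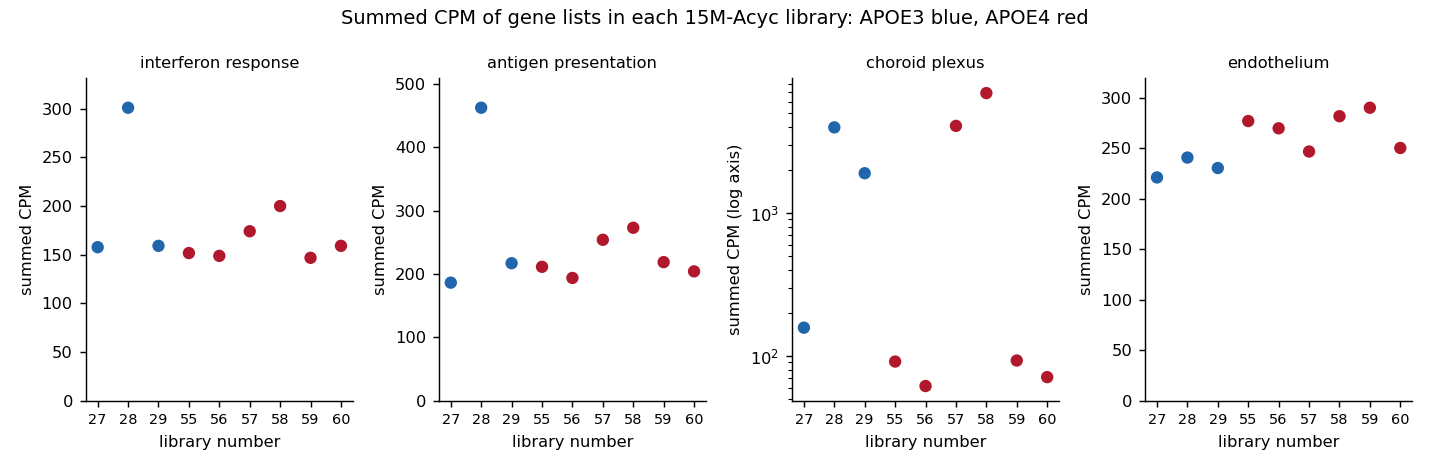
Summed CPM of 4 gene lists (vertical axes, log scale for choroid plexus) in each of the 9 libraries of the 15M-Acyc groups, with APOE3 in blue and APOE4 in red. Library 28 alone reached 301 CPM for interferon genes and 463 CPM for antigen presentation, the choroid plexus sum varied within both genotypes, and every APOE4 library exceeded every APOE3 library for endothelial markers.

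Microglial markers, of the resident immune cells, were higher for 9 of 14 (median 0.07), with 3 at the unadjusted threshold and all 3 higher. Gpr34 had 9.19, 5.66 and 10.9 CPM in APOE3 and 9.76 to 13.2 CPM (median 12.2) in APOE4. Aif1, which encodes the microglial protein IBA1, had 3.24, 4.59 and 3.25 CPM in APOE3 and 4.29 to 5.41 CPM (median 4.87) in APOE4, a change of 0.39 ± 0.17 (SE, unadjusted p = 0.0232). Aif1 was 0.57 higher without library 28 (unadjusted p = 0.00417). P2ry12, the homeostatic ADP receptor gene beside P2ry13 on chromosome 3, differed by 0.23. The summed markers overlapped, at 435 to 479 CPM in APOE3 and 441 to 506 CPM in APOE4. Without library 28, 13 of 14 were higher (median 0.11), and at 15M-Irreg all 14 were higher (median 0.10). At 9M-Irreg and at 9M-Reg 12 of 14 were higher, whereas 12 of 14 were lower at 6M-Reg. Genes of disease-associated microglia split 7 to 5 and complement genes 7 to 11 (median -0.05), and none of either list passed the unadjusted threshold. Complement genes turned to 14 higher and 4 lower without library 28 (median 0.14), which held the highest value for 7 of the 18.

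Oligodendrocyte and myelin genes were higher for 10 of 14 (median 0.05), with 2 higher and 1 lower at the unadjusted threshold and none at it without library 28. Ugt8a, the enzyme of galactocerebroside synthesis, had 34.6, 17.2 and 21.5 CPM in APOE3 and 24.5 to 40 CPM (median 36.1) in APOE4, a change of 0.51 ± 0.23 (SE, unadjusted p = 0.0300). Myrf, the transcription factor gene that drives myelin genes, differed by -0.21. Mbp and Cnp of compact and non-compact myelin differed by -0.04 ± 0.09 and 0.02 ± 0.10 (SE). Without the 4 choroid-rich libraries 12 of 14 were lower (median -0.17). Among astrocyte markers 6 were higher and 6 lower (median 0.04). Aqp4, the water channel of astrocyte endfeet on vessels, had 71.2, 64.3 and 79.1 CPM in APOE3 and 81.5 to 108 CPM (median 95.8) in APOE4, with no overlap and a change of 0.42 ± 0.11 (SE, unadjusted p = 0.00045, adjusted p = 0.167). Aldh1l1 differed by -0.19, and Gfap by 0.10 ± 0.09 (SE). In the reactive astrocyte list 19 of 32 were higher (median 0.06), with 3 higher and 2 lower at the unadjusted threshold. Emp1 (0.49), Tm4sf1 (0.36) and S1pr3 (0.28) were among the higher genes. Without library 28, 24 of 32 were higher (median 0.14), with 2 higher and 1 lower at that threshold. Iigp1, an interferon-induced GTPase gene, had 0.836, 7.84 and 1.07 CPM in APOE3 and turned from -1.14 to 0.62 without library 28.

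Neuronal marker lists had medians near 0. Markers of CA1 pyramidal cells split 3 higher to 7 lower (median -0.05), CA3 and mossy cells 5 to 7 (median -0.02), dentate granule cells 10 to 2 (median 0.06) and interneurons 3 to 11 (median -0.04). Without the 4 choroid-rich libraries dentate granule cell markers turned to 3 higher and 9 lower (median -0.16). Among the neuronal markers Calb1, the calbindin gene of granule cells, passed the unadjusted threshold at 0.19. No granule cell marker passed it without library 28 or with GC content and length offsets. Synaptic genes showed small differences. Synaptic vesicle release genes were lower for 15 of 23 (median -0.05), with Sv2a at -0.13, the vesicle GTPase gene Rab3a at -0.11 and Vamp1 at -0.15, all 3 without overlap. Without library 28, 1 of the list passed the unadjusted threshold, and without the 4 choroid-rich libraries 12 of 23 were lower with none past it. Voltage-gated sodium, potassium and calcium channel genes were lower for 25 of 32 (median -0.07), and 16 of 32 were lower without the 4 choroid-rich libraries. At the unadjusted threshold 3 were lower and 1 higher, and 4 were lower without library 28 and 0 with GC content and length offsets. Kcna4, which encodes an A-type potassium channel, was the higher 1. It had 18.5, 19.5 and 18.8 CPM in APOE3 and 22.8 to 33.5 CPM (median 25) in APOE4, a change of 0.48 ± 0.15 (SE, unadjusted p = 0.00257).

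GABA-A receptor subunit genes were higher for 10 of 12 (median 0.07), led by Gabra2 at 0.34 ± 0.13 (SE, unadjusted p = 0.0103). Without library 28, 7 of 12 were higher (median 0.02) with none at the unadjusted threshold, and GC content and length offsets gave 6 and 6. In the glutamate receptor and postsynaptic density list 15 of 26 were lower, with the scaffold genes Homer1 and Homer2 at 0.41 and 0.22 and the receptor genes Grik1, Grik5 and Grin1 at -0.24, -0.14 and -0.12. Its 2 higher and 3 lower calls at the unadjusted threshold became 0 and 1 without library 28. Homer1 ranged widely in APOE4, from 79.6 to 157 CPM, and its 2 highest libraries were 59 and 60. Bdnf, the neurotrophin gene counted among immediate early genes, had 42.2, 30.9 and 37.4 CPM in APOE3 and 42.7 to 53.5 CPM (median 47.8) in APOE4. Its groups were apart by less than 1 CPM, and its change was 0.37 ± 0.10 (SE, unadjusted p = 0.0007, adjusted p = 0.188). The other 16 immediate early genes did not pass the unadjusted threshold. Among neuropeptide and granin genes, Scg3 differed by 0.12 and Pdyn by 0.23. In the extracellular matrix list 17 of 28 were higher, with Hapln1 of perineuronal nets at 0.42 ± 0.12 (SE, unadjusted p = 0.0007) and Sparc at -0.19.

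Mitochondrial transcripts are encoded in part by the mitochondrial genome and in part by the nucleus. All 13 mitochondrially encoded messenger RNAs were higher in APOE4 (median 0.11), 4 of them at the unadjusted threshold. The 13 include mt-Co1, whose reads could be shared with Gm29216. The sum of mt-Co1 and Gm29216 had a log2 ratio of means of 0.03. mt-Nd2, a complex I subunit gene, had 2470.3, 2564 and 2373 CPM in APOE3 and 2468 to 3513 CPM (median 2987) in APOE4, a change of 0.29 ± 0.11 (SE, unadjusted p = 0.0104). mt-Nd4, mt-Nd4l and mt-Nd3 differed by 0.20, 0.16 and 0.22. The lowest APOE4 library for mt-Nd2 was library 58, which was rich in choroid plexus. All 13 were higher without library 28 (median 0.16, 2 at the unadjusted threshold) and without the 4 choroid-rich libraries (median 0.25, 7 at it), whereas offsets for GC content and length lowered the median to 0.02, with 8 of 13 higher and 1 at the threshold. Among the earlier stages, all 13 were higher at 9M-Reg (median 0.10, 3 at the threshold) and 12 at 9M-Irreg (median 0.04), whereas 12 of 13 were lower at 15M-Irreg (median -0.06) and at 6M-Reg (median -0.03). In the comparison with 15M-Irreg, 3 passed the unadjusted test between stages on the higher side.

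Nuclear-encoded subunits of oxidative phosphorylation had medians just under 0, with 22 of 36 lower for complex I, 4 of 4 for complex II, 8 of 9 for complex III, 8 of 11 for complex IV and 9 of 17 for complex V, and medians from -0.07 to -0.02. The median of complex V turned to 0.03 with GC content and length offsets. Over the 5 complexes, 7 genes were lower and 2 higher at the unadjusted threshold. Without library 28 these were 2 and 0, and without the 4 choroid-rich libraries 9 and 0. In the latter setting 32 of 36 complex I genes were lower (median -0.09). Atp5a1 (-0.12), Ndufv1 (-0.12), Sdhb (-0.12), Cox8a (-0.13), Uqcrfs1 (-0.09) and Cox5b (-0.10) were among the lower ones, and Ndufab1 (0.10) and Atp5mpl (0.10) were the higher ones. GC content and length offsets changed this balance. They gave 2 higher and 0 lower at the unadjusted threshold for complex I. For complex III they gave 0 higher and 1 lower, for complex V 3 higher and 2 lower, and none for complexes II and IV. Ndufab1 was at -0.02 without the 4 choroid-rich libraries. The regulators of mitochondrial biogenesis Ppargc1a, Nrf1 and Tfam did not pass that threshold. Cytosolic ribosomal protein genes were lower for 69 of 79 (median -0.05), with 11 lower and none higher at the unadjusted threshold (background 5.66% lower). Rpl3 had 574.8, 570.0 and 567.3 CPM in APOE3 and 503.3 to 530.1 CPM (median 524.7) in APOE4, without overlap, a change of -0.13 ± 0.04 (SE, unadjusted p = 0.00119). Without library 28, 53 of 79 were lower (median -0.03) with 1 at the unadjusted threshold. The setting without the choroid-rich libraries gave 73 of 79 lower (median -0.10) with 18 at it. GC content and length offsets brought the median to -0.02. At 15M-Irreg 72 of 79 were lower as well (median -0.04), whereas 70 of 79 were higher at 9M-Irreg and 49 at 9M-Reg, and 47 were lower at 6M-Reg. Mitochondrial ribosome genes were lower for 46 of 78 (median -0.02).

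In the lysosome and autophagy list 19 of 28 were lower (median -0.04), and all 5 at the unadjusted threshold were lower, namely the autophagy receptor gene Sqstm1 (-0.13), the autophagy kinase gene Ulk1 (-0.15), the cathepsin gene Ctsb (-0.09), the lysosomal glucosidase gene Gaa (-0.17) and Map1lc3b (-0.12). Without library 28, 15 of 28 were lower, with 3 lower and 1 higher at that threshold, and without the 4 choroid-rich libraries 2 were lower and 1 higher at it. Proteasome genes were lower for 26 of 39 (median -0.05), 4 lower and 1 higher at the unadjusted threshold, with Psmb3 at -0.14 and Psmd10 at 0.19, and 18 of 39 were lower without the 4 choroid-rich libraries, with 1 at that threshold. Cytosolic chaperone genes split 12 higher to 11 lower (median 0.00425), with 1 higher and 2 lower at the threshold. The inducible Hsp70 genes Hspa1a and Hspa1b, which are near-identical copies, differed by -0.24 and -0.32. In the antioxidant list 12 of 23 were higher and 11 lower (median 0.00024), with 0 higher and 3 lower at the unadjusted threshold. Among the lower genes were Keap1 (-0.12), Sod1 (-0.10) and the metallothionein gene Mt1 (-0.30). Without library 28, 1 gene of the list was lower at that threshold, and none passed it with GC content and length offsets.

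The lists for lipid handling, the textbook function of APOE, showed few differences in RNA. Cholesterol synthesis genes were higher for 18 of 22 (median 0.08), with Sc5d at 0.19 as the 1 gene at the unadjusted threshold. None of the list passed that threshold without library 28 or with GC content and length offsets. Without the 4 choroid-rich libraries 19 of 22 were higher (median 0.23) and 6 passed that threshold. Lipoprotein uptake and lipid transport genes were evenly split, 11 to 11 (median -0.02), with 0 higher and 3 lower at the unadjusted threshold. They split 8 higher to 14 lower without library 28 (median -0.03) and 6 to 16 without the 4 choroid-rich libraries (median -0.12). The cholesterol efflux pump gene Abca1 had 46.1, 66.2 and 70.6 CPM in APOE3 and 43.1 to 53.4 CPM (median 46.1) in APOE4, a change of -0.37 ± 0.15 (SE, unadjusted p = 0.0140). APOE3 library 27 lay within the APOE4 range, and libraries 28 and 29 were above all APOE4 libraries. Apoc1, the apolipoprotein gene next to Apoe, had 1.34, 0.832 and 0.822 CPM in APOE3 and 0.366 to 0.821 CPM in APOE4, a change of -0.66. The receptor gene Lrp2 differed by -0.54, and by 0.18 under DESeq2 with the authors' normalization factors.

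Sex steroid receptor and neurosteroid synthesis genes, of interest after cycling has ended, were higher for 15 of 21 (median 0.09), with 6 higher and 1 lower at the unadjusted threshold. Akr1c14, the 3-alpha-hydroxysteroid dehydrogenase gene that forms allopregnanolone, had 1.2, 0.594 and 0.616 CPM in APOE3 and 0.872 to 2.24 CPM (median 1.40) in APOE4, a change of 0.78 ± 0.34 (SE, unadjusted p = 0.0238). Srd5a1, the 5-alpha-reductase gene of the preceding step, differed by 0.22, the coactivator gene Ncoa3 by 0.24, the peroxisomal dehydrogenase gene Hsd17b4 by 0.13 and Pgrmc2 by 0.09, whereas the coactivator gene Ncoa1 differed by -0.14. All had overlapping groups. Without library 28, 17 of 21 were higher, with 1 higher and 1 lower at the unadjusted threshold, and without the 4 choroid-rich libraries none passed it.

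Whether genotype differences were larger in acyclic mice than in irregular cyclers of the same age was tested gene by gene. No gene passed an adjusted p of 0.05 for the difference between the stages by edgeR, DESeq2 or limma, and 951 passed the unadjusted threshold in edgeR (2.65% of genes on the higher side and 2.46% on the lower side). The smallest p on the higher side were those of the noncoding genes Gm41318 (2.65) and 9530052E02Rik (1.48), followed by Ptn (0.51), Nr3c1 (0.29) and Stard8 (0.61), and on the lower side those of Fbn2 (-0.67), Icosl (-0.57), Nkd2 (-0.80), Gm29216 (-1.40) and Klhl26 (-0.29). Gm41318 had under 0.4 CPM in each of the 9 libraries.

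**Figure D5:**
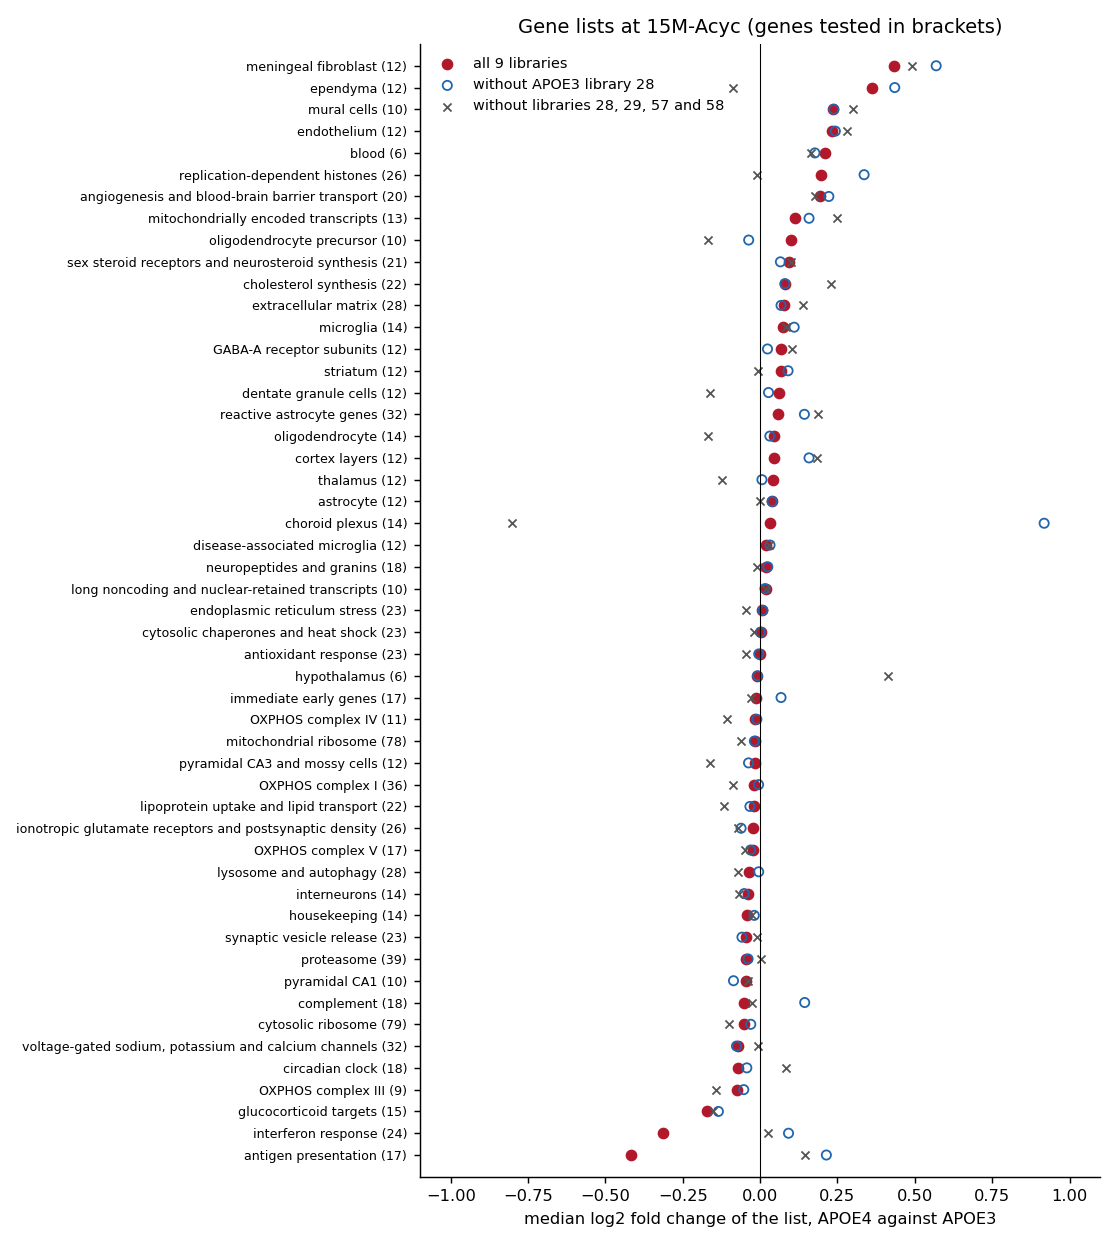
Median log2 fold change (horizontal axis, APOE4 against APOE3 at 15M-Acyc) of each gene list with at least 6 genes tested, over all 9 libraries (red), without APOE3 library 28 (open blue) and without libraries 28, 29, 57 and 58 (crosses). Endothelial, mural and barrier medians lie above 0 in each setting. Both reduced settings keep APOE3 library 27, which had the lowest APOE3 sum for these lists, so they could hardly lower those medians. The interferon and antigen presentation medians of -0.31 and -0.42 lie on the other side of 0 without library 28.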

How the data were processed

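Hippocampal poly(A) RNA of 59 samples in 10 groups of genotype, age and cycle status was sequenced, and 9 samples were compared here. The authors quantified transcripts with Salmon 0.15.0. The deposited gene table of all samples holds estimated counts, which were rounded to whole numbers here. The authors' second gene table holds counts scaled by DESeq2's normalization factors, a signal used in alternatives only. The deposited transcript files give TPM and estimated counts per transcript, and TPM was used only as a level per length. Of 24439 genes, 18584 reached 10 counts in 3 or more libraries and were tested with edgeR 4.0.16 (TMM, glmQLFit, glmQLFTest, Benjamini-Hochberg adjustment, threshold 0.05) in R 4.3.3, in 1 model of all 10 groups. CPM uses TMM-scaled library sizes. Between 14637884 and 38324719 reads were counted per library over all 59, and their number limits the precision of low genes. limma 3.58.1 (log2 scale, pseudocount 1, on the second gene table) and DESeq2 1.42.0 were alternatives, with other filters and size factors, GC content and length offsets, and each library left out. The fit was tested on simulated data first. Sequences were aligned with blastn 2.17.0+.

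The named genes are those past the adjusted threshold, the 12 higher and 12 lower with the smallest p, list members with an unadjusted p under 0.05 (at most 6 a list, or the 2 with the smallest p), the 5 with the smallest p of the stage test in each direction, and genes the study names. Some genes that meet this rule are not reported here. The groups compared, the gene lists and the tests were chosen with earlier results of these data known. The setting without the 4 choroid-rich libraries was added after the data were seen.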

Additional observations from a re-analysis of the deposited data

Results flagged for a closer look

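Within the 6 APOE4 libraries, 9 of 156 measures had a single library whose gap to the rest was large for the group's range, where chance gives about 1 in 20. Library 57 was lowest for Flt1 at 49.7 CPM, with the others at 58.3 to 60.1 CPM. Library 60 was lowest for Fkbp5 at 54.6 CPM, with the next at 65.6 CPM. Library 59 was lowest for the myelin gene Ugt8a, at 24.5 CPM, and highest for Hba-a1, at 51.1 CPM, and Ulk1, at 88.3 CPM. Library 58 was highest for Cox8a at 231.0 CPM and lowest for the summed interneuron markers at 1249.3 CPM. Library 60 was highest for the summed hypothalamic markers at 10.2 CPM and the summed pituitary markers at 8.83 CPM. The APOE3 group of 3 libraries is too small for this rule.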

How the results depend on the processing

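Against 3 genes at the adjusted threshold, DESeq2 called 16 with its own size factors and 42 with the authors' normalization factors, limma called 6, the 9 libraries alone gave 0, and the setting without the 4 choroid-rich libraries, chosen after seeing the data, gave 0. Leaving out 1 library at a time gave 0 to 6. At the unadjusted threshold, where 2079 passed, leaving out 1 library gave 1126 (library 28) to 2604 (library 27), and the setting without the choroid-rich libraries gave 1133. The share of these that were higher was 49.4%, and it was 42.5% without library 28 and 56.5% without library 27. The stage test called 0 genes at the adjusted threshold under each alternative, with 744 to 1324 at the unadjusted one. Signs turned without library 28 for Bst2 (0.0251), H2-D1 (0.0596), Iigp1 (0.621), Irf7 (0.138) and Usp18 (0.0173), whose lowest values without another library were -1.57, -0.771, -1.61, -1.32 and -1.48. They turned without the choroid-rich libraries for Bst2 (0.0164), Ccdc153 (-0.16), Ciart (0.34), Cry2 (0.0079), Grik1 (0.12), H2-D1 (0.0091), Hsd17b4 (-0.0442), Iigp1 (0.66), Ndufab1 (-0.019) and Ugt8a (-0.0144). With the authors' factors in DESeq2 they turned for Lrp2 (0.18) and Rps15a (0.0506), the latter also in limma (0.0485). The cause was not tested. No paired analysis was possible because library numbers are unique to a sample and no number is shared between groups. With 3 APOE3 libraries, 1 library moves many values, and low genes are limited by their read counts.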

Other observations

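Pituitary markers, which no comparison here used, summed to 31.3 CPM in APOE3 library 29 and 8.83 CPM in APOE4 library 60, against 0.663 to 3.58 CPM in the other 7 libraries. Library 29 is also the APOE3 library whose Ndn level, 111 CPM, lay in the APOE4 range. Summed housekeeping genes were lower in every APOE4 library (8397 to 8799 CPM) than in every APOE3 library (8888 to 9176 CPM). Such a sum is weighted to the most abundant members. Gene by gene, 10 of 14 were lower (median -0.04), with 2 lower and 0 higher at the unadjusted threshold (background 5.66% lower). Without library 28, 6 were higher and 8 lower (median -0.02).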
